A study of Homo sapiens with 6 samples.

Results

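The YPEL genes encode a family of small zinc-binding proteins, and their transcripts were followed here in a human lymphoma cell line grown in 2 forms. Members were all probe sets whose platform annotation names exactly 1 of the symbols YPEL1, YPEL2, YPEL3, YPEL4 or YPEL5. These 5 genes of 19775 named on the array had 11 probe sets of 54613 that are not controls. The family was taken up with the higher YPEL3 signal in aggregates already known, so the signals of all members in this contrast are given as a description, with no test.

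RL is an established human B lymphoid line with the genotype t(14,18)+, and none of the cells had been treated. One group, called suspension, was harvested while growing exponentially. The other, called MALC for multicellular aggregates of lymphoma cells, was harvested after 10 days of culture. Each group had 3 samples, each read on 1 Affymetrix U133 Plus 2.0 array. All 6 samples are of 1 line, and the labels do not say whether the samples of a group were separate cultures, so the spread between them may be technical.

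Yippee-like proteins are named after the Yippee protein of the fruit fly and are conserved across eukaryotes. YPEL1 to YPEL4 resemble each other closely and YPEL5 is the most distant member. In dividing cells members of the family are found at the centrosome and the mitotic spindle, and YPEL3 is known as a growth-suppressing gene that p53 can induce. YPEL5 is a subunit of the CTLH complex, an E3 ubiquitin ligase built around RANBP9 or RANBP10.

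The start regions of the genes are shown first, because the members were all higher in MALC and their starts can be compared letter by letter. RefSeq (GRCh38.p14) promoter windows of 250 bases before to 50 bases after the annotated start were matched by symbol for 4 of the 5 genes, YPEL2, YPEL3, YPEL4 and YPEL5. Each line below runs 5′ to 3′ on the gene's own strand from 120 bases before the start to the first 30 bases of the transcript, 150 bases in all, and capitals mark the motif matches found in the window.
YPEL3 (chr16:30096184-30096333, minus strand): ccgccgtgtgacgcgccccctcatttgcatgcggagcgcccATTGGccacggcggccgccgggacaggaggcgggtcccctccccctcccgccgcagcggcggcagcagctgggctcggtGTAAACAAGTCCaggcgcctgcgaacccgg
YPEL2 (chr17:59331535-59331684, plus strand): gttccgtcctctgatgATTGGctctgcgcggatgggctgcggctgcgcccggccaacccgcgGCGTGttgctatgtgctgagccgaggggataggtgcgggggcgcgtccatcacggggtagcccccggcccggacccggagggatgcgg
YPEL5 (chr2:30146887-30147036, plus strand): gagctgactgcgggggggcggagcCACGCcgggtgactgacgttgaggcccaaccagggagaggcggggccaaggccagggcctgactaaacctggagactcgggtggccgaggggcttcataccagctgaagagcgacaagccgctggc
YPEL4 (chr11:57649883-57650032, minus strand): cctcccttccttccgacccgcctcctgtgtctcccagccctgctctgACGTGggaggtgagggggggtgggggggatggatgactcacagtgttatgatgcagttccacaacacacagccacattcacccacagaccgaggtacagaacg

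The motifs searched on both strands were the forkhead motif GTAAACA, the E-box CACGTG, the hypoxia response core in its form ACGTG or in the alternative form GCGTG, the CCAAT box and the p53 half-site. The E-box contains the core ACGTG. No motif was present in all 4 windows. YPEL3 held the forkhead motif from base 1 of the transcript, with a p53 half-site match that overlaps it from base 3, and a CCAAT match on the other strand at −79. YPEL2 held a CCAAT match on the other strand at −104 and GCGTG at −58. YPEL5 held GCGTG on the other strand at −96, and YPEL4 held ACGTG at −73. None of the 4 windows held the E-box. Among 35114 RefSeq windows of the same length, 3.42% held the forkhead motif, 6.63% the p53 half-site, 7.26% the E-box, 34.6% the CCAAT box, 21.4% the core ACGTG and 36.5% its alternative form. These matches describe letters, not bound sites. The windows of YPEL3, YPEL2 and YPEL5 were rich in G and C (79%, 75% and 70%, against a median of 58.7% over all windows), and that of YPEL4 held 62.3%.

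The deposited values were linear array signals with similar distributions (medians 80.7 to 81.7), and having only 3 arrays a group limits the precision. Samples 2 and 3 of a group were nearly alike, with Pearson correlations across probe sets of 0.9984 in MALC and 0.9985 in suspension, while sample 1 correlated with them at 0.995 to 0.996. Values without both arrays numbered 1 are therefore given below. B cell genes were bright in both groups, PAX5 at 5433 ± 189 in MALC and 5821 ± 222 in suspension (SD, n = 3), and CD79B at 6499 ± 639 and 5771 ± 295. Of 6 B cell markers 5 were measured. Summed signals of the 4 monocyte markers were 167 to 185 in MALC and 175 to 186 in suspension. Those of the 4 stromal markers were 417 to 463 and 473 to 780, and those of the 4 T cell markers 439 to 491 and 613 to 664. The stromal marker COL1A2 was 48.8 ± 4.64 in MALC and 176 ± 152 in suspension. COL1A1 was 276 ± 11.6 and 289 ± 7.16, DCN 101 ± 10.0 and 118 ± 12.5, and LUM 14.3 ± 1.64 and 17.5 ± 1.33. The germinal centre B cell markers MME and BCL6 were 2046 ± 130 and 13531 ± 707 in MALC, and 1422 ± 48.1 and 11477 ± 1696 in suspension. Of the T cell markers CD247 was 243 ± 22.7 in MALC and 407 ± 28.8 in suspension and CD2 43.9 ± 0.40 and 54.4 ± 4.23, while CD3D was 75.6 ± 0.15 and 76.7 ± 6.91 and CD3E 97.8 ± 5.14 and 105 ± 7.98. The part of these differences in the YPEL values was not tested.

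All 11 YPEL probe sets had higher signals in each MALC array than in any suspension array. Of all probe sets that are not controls, 18.3% were higher in MALC without overlap. The ratios of mean signals ran from 1.34 to 6.76. Log2 changes below are differences of log2(signal + 16), MALC minus suspension, with the standard error from a limma fit over all probe sets. On that scale 6 of the 11 were at least 2-fold higher, against 2.09% of all probe sets, and the median of the 11 was 1.06. The offset of 16 makes the changes of dim probe sets smaller than their ratios of signals. Since the contrast had a part in the choice of the family, these counts are not evidence about it.

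**Figure D1:**
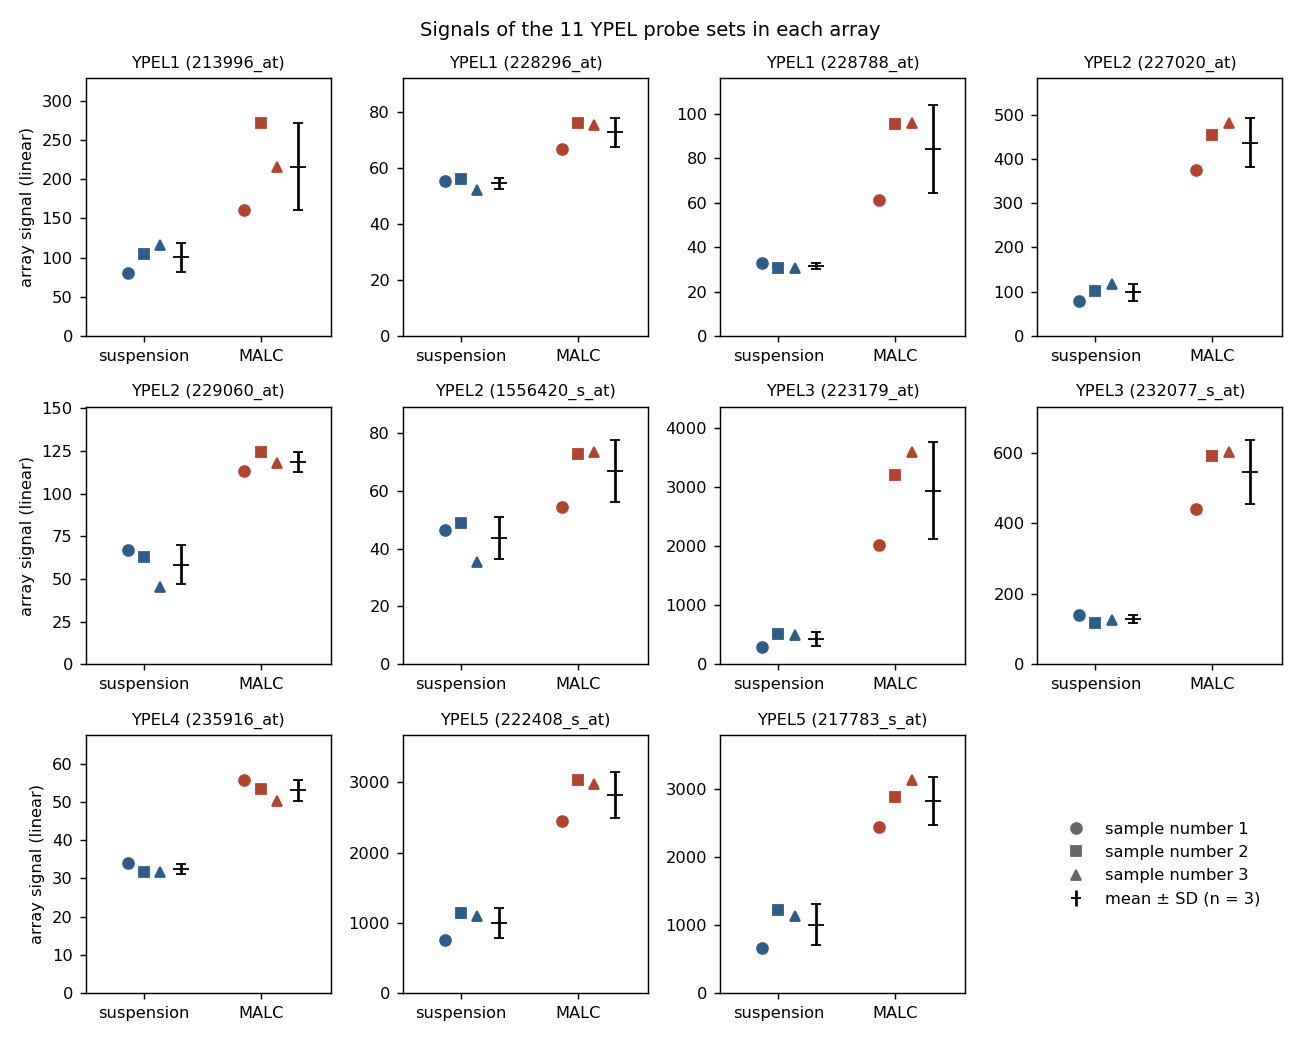
Linear array signal (y axis, from 0) of each YPEL probe set in the 3 suspension and 3 MALC arrays; symbols mark the sample number, and the black bars are the mean ± SD (n = 3). The groups are separated in all 11 panels, most widely in YPEL3 223179_at (298 to 507 in suspension, 2019 to 3602 in MALC).

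YPEL3 had the largest change of the family. Its brighter probe set, 223179_at, read 2019, 3208 and 3602 in MALC samples 1, 2 and 3, and 298, 507 and 501 in suspension samples 1, 2 and 3. Sample 1 was the lowest of its group in both culture forms, and the lowest MALC array was 3.98 times the highest suspension array. The means were 2943 ± 824 and 436 ± 119 (SD, n = 3 each), a ratio of 6.76 and a log2 change of 2.71 ± 0.25 (SE). The dimmer probe set, 232077_s_at, read 442, 593 and 604 in MALC and 140, 117 and 127 in suspension. Here sample 1 was again the lowest in MALC but the highest in suspension. Its log2 change was 1.96 ± 0.13, and the ratio of its means was 4.27.

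The YPEL2 probe sets differed in the size of their change. The brightest, 227020_at, read 376, 454 and 481 in MALC and 78.7, 101 and 117 in suspension. The lowest MALC array was 3.21 times the highest suspension array, and the log2 change was 1.99 ± 0.14 (means 437 ± 54.4 and 98.7 ± 19.2). A second probe set, 229060_at, read 113, 125 and 118 in MALC and 66.8, 63.1 and 45.2 in suspension, with a log2 change of 0.87 ± 0.11. The third, 1556420_s_at, read 54.4, 72.5 and 73.4 in MALC and 46.5, 48.7 and 35.3 in suspension. Its groups came closest to each other of all the members, the lowest MALC array being 1.12 times the highest suspension array, and its log2 change was 0.48 ± 0.12.

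Both YPEL5 probe sets gave nearly the same values. The CTLH subunit gene read 2450.1, 3034 and 2980.1 in MALC and 752, 1139 and 1093 in suspension with 222408_s_at. With 217783_s_at it read 2435, 2882 and 3127 in MALC and 659, 1222 and 1132 in suspension. Sample 1 was lowest in each group with either probe set. The log2 changes were 1.51 ± 0.16 and 1.51 ± 0.21, and the ratios of means were 2.84 and 2.80. The log2 change of 222408_s_at was 1.32 without suspension 1.

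YPEL1, a gene first studied for its effect on the shape of fibroblasts, had 3 probe sets of unequal change. The brightest, 213996_at, read 161, 272 and 216 in MALC and 80.0, 105 and 117 in suspension. The MALC arrays spread widely (SD 55.5 around 216), and the log2 change was 0.98 ± 0.18. The probe set 228296_at read 66.9, 76.1 and 75.6 in MALC and 55.4, 56.1 and 52.3 in suspension, a log2 change of 0.33 ± 0.07 and the smallest of the 11. The probe set 228788_at read 61.2, 95.4 and 95.7 in MALC and 32.8, 30.8 and 30.4 in suspension, with a log2 change of 1.06 ± 0.13. Its mean of log2(signal + 16) over the 6 arrays lay under the filter used for tests (whose level on that scale corresponds to a signal of 53.4), and its suspension mean exceeded that of only 27.6% of probe sets.

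YPEL4 was seen by 1 probe set, 235916_at, which was dim in every array. It read 55.8, 53.4 and 50.4 in MALC and 34.1, 31.6 and 31.7 in suspension. The groups were apart by a ratio of means of 1.64 (53.2 ± 2.74 and 32.5 ± 1.44), a log2 change of 0.51 ± 0.05. It lay under the filter, its suspension mean exceeded that of 28.4% of probe sets, and no detection calls were used, so these signals were not shown to be above background. In all, 9 of the 11 probe sets and 4 of the 5 genes passed the filter. The YPEL2 probe set 1556420_s_at passed through its MALC signals, with every suspension array under the filter level of 53.4. Its suspension mean exceeded that of 35.1% of probe sets.

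Taken by the brightest probe set of each gene, the changes kept 1 order in each MALC array. Relative to the suspension mean, YPEL3 stood at 2.21, 2.87 and 3.04 (log2) in MALC 1, 2 and 3, YPEL2 at 1.79, 2.05 and 2.13, YPEL5 at 1.31, 1.62 and 1.59, YPEL1 at 0.61, 1.32 and 1.01, and YPEL4 at 0.57, 0.52 and 0.45. The ranges of YPEL5 and YPEL1 overlapped, and those of the other neighbours in this order did not. The order rests on the choice of probe set: the dimmer YPEL3 probe set stood at 1.67 to 2.11, within reach of YPEL2, and with the mean of all probe sets of a gene YPEL5 (1.51) stood above YPEL2 (1.11). Without both arrays numbered 1, the log2 changes were 2.72 (YPEL3), 1.96 (YPEL2), 1.42 (YPEL5), 1.03 (YPEL1) and 0.51 (YPEL4).

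MALC 1 was the lowest MALC array for 10 of the 11 probe sets, the exception being YPEL4, where it was the highest. Over all probe sets MALC 1 was the lowest of its group for 37.8%. Across probe sets MALC 1 also correlated more closely with the suspension arrays (Pearson 0.987 to 0.989) than MALC 2 and MALC 3 did (0.977 to 0.981). The genes named below as nearest to a member were also all lowest in MALC 1, but they were chosen by likeness over these same arrays. Their low MALC 1 is therefore no separate support. Whether a low MALC 1 is particular to the family was not tested. The median member lay 0.20 below its group mean in MALC 1 on the log2 scale, and 0.11 and 0.12 above it in MALC 2 and MALC 3. In suspension, sample 1 was the lowest for 5 of the 11, namely the brightest probe sets of YPEL1, YPEL2 and YPEL3 and both of YPEL5.

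**Figure D2:**
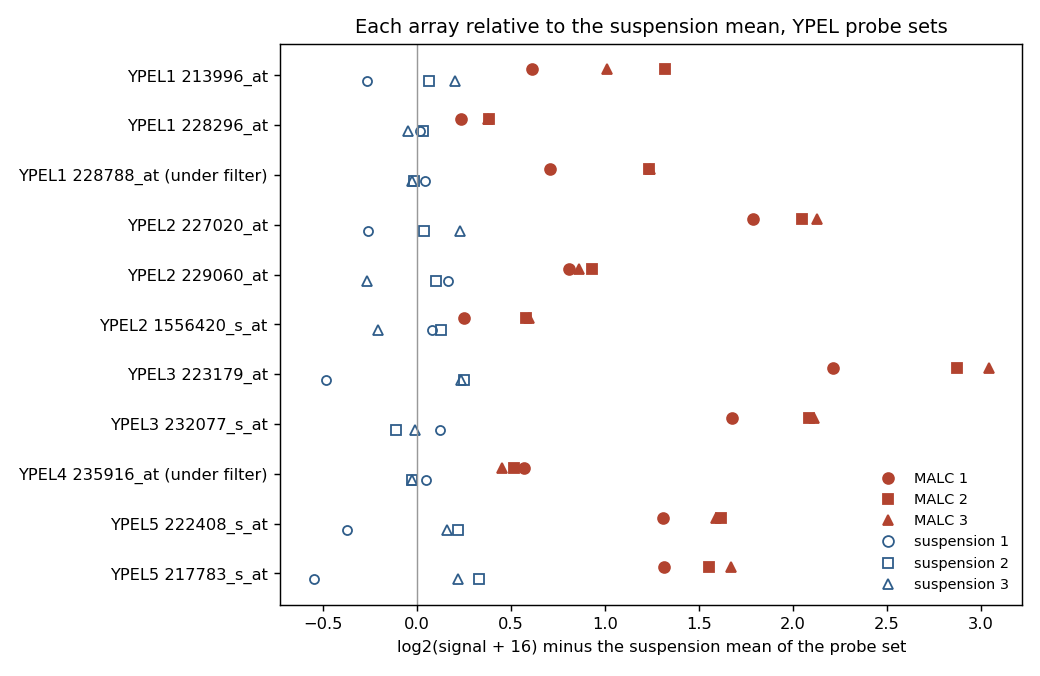
Each array's log2(signal + 16) minus the suspension mean of the same probe set (x axis), for the 11 YPEL probe sets (rows); filled symbols are MALC arrays and open symbols suspension arrays. MALC 1 lies left of the other MALC arrays in 10 rows, and the probe sets of YPEL1 and YPEL2 differ more among themselves than those of YPEL5.

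The genes with the most similar profiles were found for the 4 members that passed the filter. Likeness was the Euclidean distance over the 6 arrays, in log2 units, after each gene was set to its own suspension mean. A likeness in this sense is chosen from all genes tested and is given without a test. As each gene was set to its suspension mean, the distance mainly follows the size of the change, not the pattern within a group. Nearest to YPEL3 were OTUD1, a deubiquitinase gene (distance 0.41), H2AC6, a histone H2A gene (0.45), and CNR1, a cannabinoid receptor gene (0.46). These CNR1 values are of 1 of its probe sets, with a suspension mean of 35.1; with any single MALC array left out another probe set of CNR1 was the brightest, and its log2 change was 0.23 to 0.27 in place of 2.93. OTUD1 read 558, 665 and 827 in MALC and 68.7, 95.8 and 96.4 in suspension. Sample 1 was its lowest value in both groups, as it was for every gene named here as nearest to a member. Nearest to YPEL2 were MXI1, a MAX-binding antagonist of MYC (0.22), SLC16A4 (0.27) and EFEMP2 (0.27). MXI1 had 5399 ± 581 in MALC and 1267 ± 168 in suspension. Nearest to YPEL5 were LGALS1, which encodes galectin-1 (0.19; 1605 ± 149 and 569.6 ± 152), TMEM225B (0.22) and the kinase gene MAP3K8 (0.22). Nearest to YPEL1 were MTMR9LP (0.16), ANKRD42 (0.22) and CARD8 (0.23). These likenesses too rest on the brightest probe set. With the mean of probe sets the log2 change of CARD8 was 0.23 in place of 1.07 and did not pass (limma adjusted p = 0.114). That of MTMR9LP was 0.64 in place of 1.01, and that of YPEL1 itself 0.79 in place of 0.98. The suspension mean of ANKRD42 was 43.5, under the filter level, so it was kept through its MALC signals. Among the 4 members themselves, by their brightest probe sets, YPEL2 and YPEL5 were closest (0.87), and YPEL1 and YPEL3 farthest apart (3.03). The same pairs had the nearest log2 changes (1.99 and 1.51) and the farthest (0.98 and 2.71), so these distances add little to them.

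The other genes of the CTLH ligase were not part of the family and were tested. Of 11 such genes, all measured, 5 rose and 2 fell in MALC, and none reached the change of YPEL5. Over all 13765 genes tested with limma, 42.7% changed, 19% upward and 23.7% downward (Benjamini-Hochberg adjusted p under 0.05). The median log2 change was 0.11 for the list and −0.06 for all genes. The rises included UBE2H, the E2 enzyme that works with the complex, at 3436 ± 358 in MALC and 1878 ± 163 in suspension (log2 change 0.86 ± 0.10 SE, limma adjusted p = 0.000685). RANBP10, a scaffold subunit, had 656 ± 63.8 and 397 ± 28.5 (0.70 ± 0.09, limma adjusted p = 0.00114).

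Smaller rises were seen in the subunits that join the ligase into larger assemblies and in the second scaffold. WDR26 had a log2 change of 0.33, MKLN1 of 0.30 and RANBP9 of 0.29. The MKLN1 call was lost without suspension 2 (limma adjusted p = 0.0521). The 4 WDR26 probe sets ran from 0.33 to 1.37, the brightest giving the smallest value, and all 4 passed in the fit over probe sets, as did all 4 of RANBP9 (0.29 to 0.65). For UBE2H and MKLN1, 4 of 6 probe sets each passed as higher. The others had log2 changes of 0.04 and −0.05 (UBE2H) and of −0.02 and 0.00081 (MKLN1). The largest MKLN1 change, 0.79, came from a dim probe set with means of 87.0 in MALC and 43.2 in suspension. Its suspension mean lay under the filter level, so it was kept through its MALC signals and its rise is partly selected by the filter.

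The genes that fell were MAEA, a catalytic RING subunit (2207 ± 50.4 in MALC and 2781 ± 90.9 in suspension, log2 change −0.33, limma adjusted p = 0.00315), and ARMC8, which connects the substrate receptor (log2 change −0.24). The ARMC8 call was lost without MALC 2, MALC 3 or suspension 3 and without _s_at and _x_at probe sets, with limma adjusted p up to 0.0723, and its 6 probe sets ran from −0.63 to 0.11. RMND5A and RMND5B, the partners of MAEA, had log2 changes of −0.15 and 0.09 and did not pass (limma adjusted p = 0.512 and 0.391). GID8, a core subunit, at −0.14, and GID4, the substrate receptor, at 0.11, did not pass either. In the fit over probe sets a further GID4 probe set passed as higher (log2 change 0.73, limma adjusted p = 0.000745) and a further GID8 probe set as lower (−0.27, limma adjusted p = 0.0249). The falls of the list numbered 4 without both arrays numbered 1.

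Proteins with the same zinc-binding fold as the Yippee-like proteins include cereblon and the Mis18 pair, which marks centromeres for loading of new CENP-A. Of 4 genes listed for this fold and its partner 3 were tested. The shares of all genes that changed were those given above. CRBN, the substrate receptor of a cullin ligase, rose with a log2 change of 0.31 (958 ± 94.6 and 766 ± 51.6 in MALC and suspension, limma adjusted p = 0.0301), and the call was lost when any single array except MALC 1 was left out (adjusted p up to 0.115). OIP5, a Mis18 subunit, fell with a log2 change of −0.51 (1620 ± 290 and 2293 ± 265, limma adjusted p = 0.0192), a call lost without MALC 2, MALC 3 or suspension 1. MIS18A, the other subunit, had a log2 change of −0.48 and did not pass (limma adjusted p = 0.0755). It passed as lower with the sample number as a block (limma adjusted p = 0.0111) and without MALC 1 (0.00113).

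**Figure D3:**
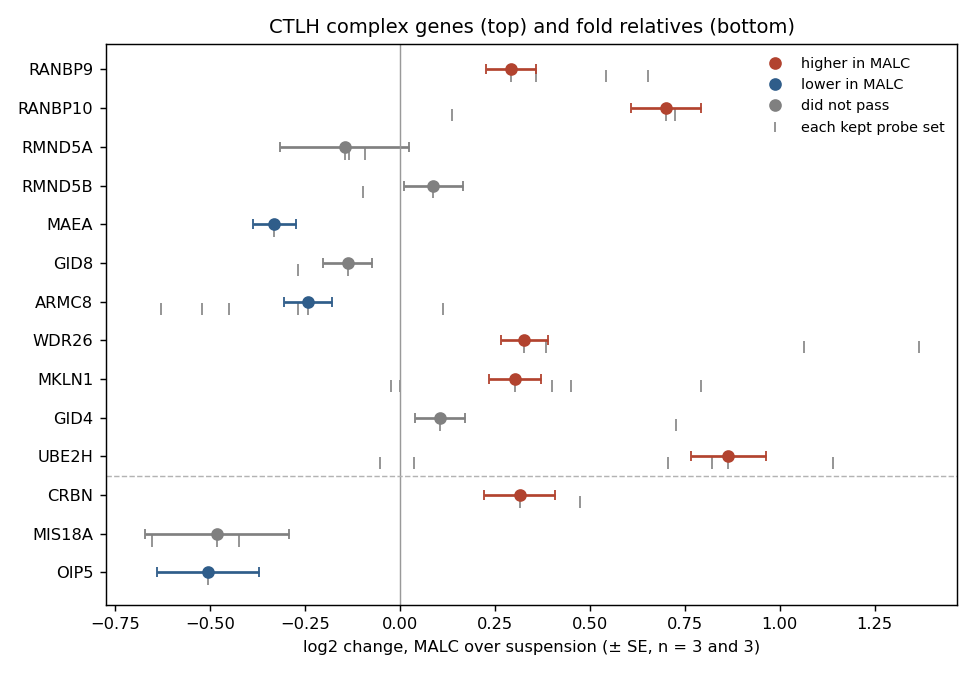
Log2 change of MALC over suspension (x axis, ± SE, n = 3 and 3) for 11 CTLH genes above the dashed line and 3 fold relatives below it; points are the brightest probe set of each gene, coloured by the limma call, and grey ticks are all its probe sets that passed the filter. UBE2H at 0.86 is the largest point, and the ticks of WDR26 reach 1.37.

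The genes next to the YPEL genes on their chromosomes were tested as well. In the RefSeq table (GRCh38.p14), the 3 nearest protein-coding genes on each side of the 5 loci made 30 genes, of which 23 were tested, 5 lay under the filter and 2 were not analysed here. In MALC 3 of the 23 rose and 6 fell, with a median log2 change of −0.09. The shares in all genes were those given above. At the YPEL3 locus GDPD3, the next gene on one side, rose with a log2 change of 0.66 ± 0.12 (201 ± 34.0 in MALC and 121 ± 8.24 in suspension, limma adjusted p = 0.00342). TBX6, the next gene on the other side, had a log2 change of −0.11 and did not pass (limma adjusted p = 0.281), although 1 of its 2 probe sets passed as higher at 0.33 in the fit over probe sets.

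Farther out at this locus ALDOA, a glycolytic aldolase, rose by 0.48, PPP4C, a phosphatase subunit, fell by 0.23, and CORO1A, an actin-binding coronin, fell by 0.59 on the log2 scale. The PPP4C call was lost without MALC 2, suspension 2 or suspension 3 (limma adjusted p up to 0.101). YPEL3-DT, the divergent transcript that starts beside YPEL3, was looked up after its values were seen. It read 65.0, 69.1 and 74.9 in MALC and 66.0, 62.6 and 59.4 in suspension, and the groups overlapped (log2 change 0.12 ± 0.07, limma adjusted p = 0.233 in the fit over probe sets).

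Neighbours of the other members moved either way or did not pass. DHX40, next to YPEL2, rose with a log2 change of 0.36. At that locus SMG8, CLTC and PRR11 had 0.00038, −0.09 and −0.20 and did not pass. In the fit over probe sets, however, 2 of the 3 PRR11 probe sets, both _x_at, passed as higher (0.20 and 0.24). SDF2L1, an endoplasmic reticulum protein gene at the YPEL1 locus, fell by 1.63 (738 ± 264 in MALC and 2249 ± 360 in suspension, limma adjusted p = 0.0013). CLP1 and ZDHHC5, on the same side of YPEL4, fell by 0.56 and 0.57, and LCLAT1, near YPEL5, fell by 0.65 on the log2 scale. DHX40, ALDOA and GDPD3, the neighbours that rose, were measured by _s_at or _x_at probe sets only.

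**Figure D4:**
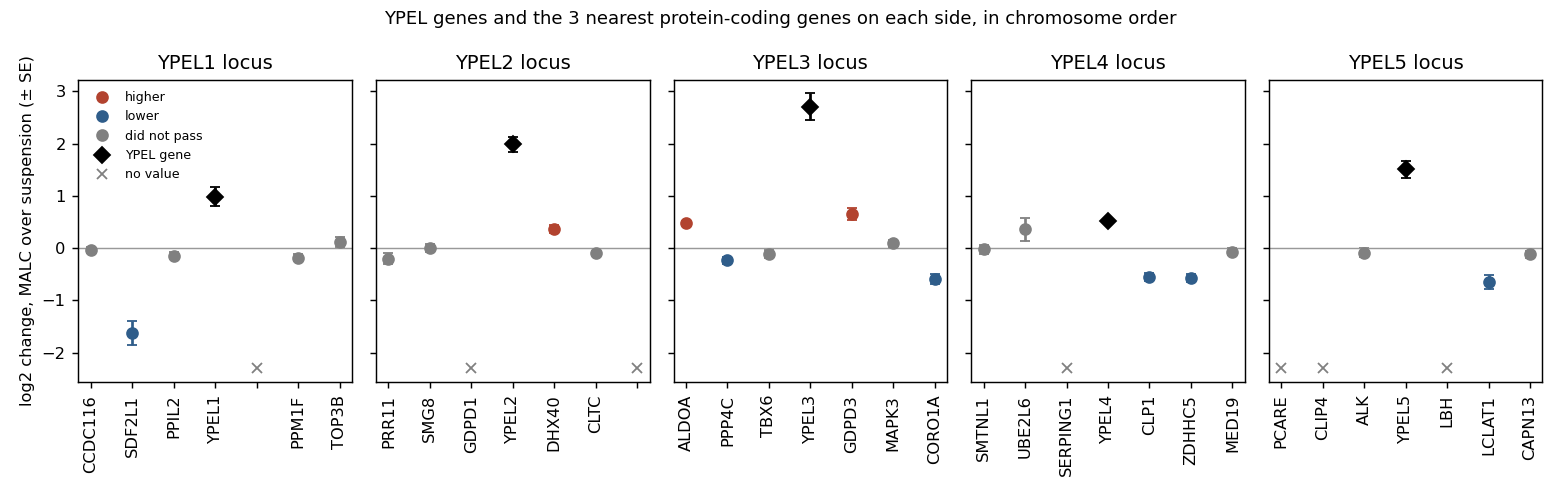
Log2 change of MALC over suspension (y axis, ± SE, n = 3 and 3) for each YPEL gene (black diamonds) and the 3 nearest protein-coding genes on each side (x axis, in chromosome order, not to scale); crosses stand for genes without a value. The diamonds lie above all tested neighbours of their locus, from 0.51 for YPEL4 to 2.71 for YPEL3. The contrast had a part in the choice of the family, so their height is not evidence about the loci. The YPEL4 probe set lay under the filter.

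Other gene groups known for restraint of growth were set beside the family by their counts. Over all genes tested with limma, 19% rose and 23.7% fell. Of the BTG, TOB and PNRC1 genes 5 of 7 were tested, and PNRC1, a nuclear receptor coactivator gene, rose by 1.75 and BTG1 by 1.15 on the log2 scale. TOB1 and BTG3 fell, by 0.38 and 0.21, and TOB1 no longer passed once MALC 2, MALC 3, suspension 2 or suspension 3 was dropped (limma adjusted p up to 0.104). BTG3 no longer passed once any array except MALC 1 was dropped (limma adjusted p up to 0.138), nor under 4 other settings, with limma adjusted p up to 0.951 without _s_at and _x_at probe sets. Of 8 CDK inhibitor genes 7 were tested, and CDKN1B, which encodes p27, was alone in passing, with a log2 change of 1.91; with the sample number as a block, or without MALC 1, 2 others passed as lower. The medians were 0.08 and −0.01 for these groups. The differences between these groups and the YPEL genes were not tested.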

How the data were processed

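The authors deposited 1 linear signal intensity per probe set and array. The submitters' processing notes name MAS5; its settings and the scaling between arrays are not given in the sources used here. Control probe sets (62) were left out. Symbols come from the platform annotation and were updated through Entrez identifiers with the RefSeq table; 41091 probe sets had 1 symbol, 1801 several and 11721 none, and only the first were named. Values were set to log2(signal + 16). For gene tests, those whose mean of these log2 values reached the 40th percentile (which corresponds to a signal of 53.4; 32768 probe sets) were kept and the one with the highest mean stood for its gene (13765 genes). MALC and suspension were set against each other in limma 3.58.1 (R 4.3.3; eBayes with trend, two-sided, Benjamini-Hochberg adjustment over all genes at 0.05). Standard errors of members come from the same model over 54613 probe sets. On simulated data for this comparison (13765 genes), 68.7%, 94% and 98.5% of simulated log2 shifts of 0.5, 1 and 2 were recovered. Only 67, 67 and 66 genes were shifted by these sizes, and the noise was independent between genes. In the data 42.7% of genes changed, so these shares need not hold for the real contrast.

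The members, lists and tests were chosen with earlier results of these data known. All YPEL probe sets are named, as are all tested CTLH genes and fold relatives and neighbours past the threshold. Up to 3 genes of the growth restraint groups and the 3 genes most alike each member are named too. BTG3, SMG8, CLTC, PRR11, TBX6 and YPEL3-DT were added with their values in view. The sample numbers of the titles are shared by both groups, and the labels do not say what they mark. Deviations of same-numbered arrays correlated at 0.14 to 0.25, and arrays numbered 1 correlated with those of other numbers at −0.22 to −0.18. Deviations are taken from the mean of each group, so these values are not independent of each other. The number was used as a block in an alternative. Crossing numbers 2 and 3 gave 0.14 and 0.175, so numbers 2 and 3 were not told apart. Probe sequences were not analysed here, and _s_at probe sets can detect several transcripts.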

Additional observations from a re-analysis of the deposited data

How the results depend on the processing

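Of 69 log2 changes of the 5 YPEL genes under the alternatives (YPEL5 has no value without _s_at and _x_at probe sets), none changed sign and 65 stayed within 1 SD of the value given. The others were YPEL2 with an offset of 64 (1.62) and with the mean of probe sets (1.11), and YPEL4 with offsets of 1 (0.69) and 64 (0.28); these offsets weight dim signals differently. Part of this stability was fixed in advance. The groups did not overlap in any YPEL probe set, so leaving arrays out or changing the offset could not reverse a sign. The block cannot move a log2 change in this balanced design. Leaving out _s_at and _x_at probe sets kept the same probe set for YPEL1 to YPEL4, and YPEL4 has only 1 probe set to average. With 1 array left out, the changes were 0.81 to 1.16 (YPEL1), 1.86 to 2.10 (YPEL2), 2.47 to 2.96 (YPEL3), 0.49 to 0.54 (YPEL4) and 1.32 to 1.61 (YPEL5). Of 40 tested genes followed, 28 kept their direction and side of the threshold under all alternatives run for them and none reversed while called.

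The counts moved more, and the cause was not tested. With array weights 8880 genes changed (5877 otherwise), 5230 of them lower, and the CTLH falls numbered 4, the falls of fold relatives 2, the neighbours 5 higher and 10 lower, and the CDK inhibitors 3 higher and 2 lower. With 1 array left out the ranges were 3993 to 6491 genes in all, 1880 to 2859 higher and 2113 (without MALC 2) to 3632 lower; 1 to 2 CTLH falls; 0 to 1 rises and 0 to 2 falls of fold relatives; 0 to 2 falls of BTG and TOB genes; and 0 to 2 falls of CDK inhibitors. With the replicate block 2 fold relatives and 2 CDK inhibitors were lower, and it changed no other count by over 1.5 times. Without both arrays numbered 1, chosen after seeing the data, 4 CTLH genes, 2 fold relatives and 2 CDK inhibitors were lower, and 5 neighbours and 3 CDK inhibitors higher. The BTG and TOB falls numbered 1 in each of 4 settings: no filter, quantile normalization, averaged probe sets, and _s_at and _x_at probe sets left out. The last also gave 1 rise there, 0 CTLH falls and 0 rises of neighbours in limma, but BTG1, MAEA, DHX40, ALDOA and GDPD3 have no other probe set past the filter and so no value in it; of the CTLH falls ARMC8 was tested again and did not pass (limma adjusted p = 0.0658). With the mean of probe sets 2 fold relatives fell. Signals near the dim end, as for YPEL4, limit what can be said of their size.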
